A study of Mus musculus with 9 samples.

Results

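The 9 genes described here, Sox2, Sox9, Sox10, Sox21, Eya1, Gata3, Prox1, Pax2 and Sall1, are regulators of inner ear and prosensory identity in the mouse. They were chosen by name, and all 9 were found among the 54232 genes of the deposited count tables by matching each Ensembl ID to its mouse symbol. RNA was measured in cochlear ducts at E14.5, with one library from the ducts of both inner ears of a single embryo. The embryos were 3 Prdm16 +/+ (WT), 3 Prdm16 cGT/+ (heterozygote) and 3 Prdm16 cGT/cGT (null) littermates from matings of Prdm16 cGT/+ mice kept on an FVB/NJ background, and cGT is a gene trap null allele carried by every cell of the embryo. The question addressed is whether loss of PRDM16, a transcriptional regulator found in Kölliker's organ, was accompanied by other RNA levels of these regulators. Prox1 was the only 1 of the 9 genes whose level passed the test between null and WT embryos, and it was 2.48-fold higher in the null embryos. Sall1 and Sox2 did not pass, although their lowest null value exceeded their highest WT value, and the other 6 genes had overlapping WT and null values.

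The cochlear duct grows from the otic vesicle, and its floor is divided into Kölliker's organ on the neural side, the prosensory domain that later forms hair cells and supporting cells, and the outer sulcus. SOX2 marks the prosensory domain and is needed for it. GATA3, PAX2, SALL1 and EYA1, which acts as a coactivator and phosphatase, are used earlier and more widely in the otic epithelium, and loss of one copy of GATA3, EYA1 or SALL1 function is a known cause of syndromic hearing loss. SOX9 and SOX10 are expressed in most of the otic epithelium, SOX21 and PROX1 in developing sensory regions, where PROX1 becomes restricted to supporting cells.

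Promoter sequences are shown for Prox1, Sall1 and Sox2, the 3 genes whose null and WT embryos did not overlap. Each runs 5′ to 3′ on the gene's strand over 300 bases, from 250 before to 50 after a RefSeq start in GRCm38.p6, the mm10 assembly. Capitals mark matches to ACAAT or ACAAAG, letters bound by SOX proteins, on either strand. The Prox1 window is chr1:190170778-190171077 on the minus strand, the Sall1 window is chr8:89044113-89044412 on the minus strand and the Sox2 window is chr3:34649745-34650044 on the plus strand.
Prox1: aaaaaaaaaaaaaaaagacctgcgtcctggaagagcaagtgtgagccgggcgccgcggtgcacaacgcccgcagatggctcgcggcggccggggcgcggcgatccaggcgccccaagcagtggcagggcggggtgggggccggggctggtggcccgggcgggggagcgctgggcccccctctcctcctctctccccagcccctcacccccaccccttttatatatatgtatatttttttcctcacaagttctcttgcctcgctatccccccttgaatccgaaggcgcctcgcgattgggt
Sall1: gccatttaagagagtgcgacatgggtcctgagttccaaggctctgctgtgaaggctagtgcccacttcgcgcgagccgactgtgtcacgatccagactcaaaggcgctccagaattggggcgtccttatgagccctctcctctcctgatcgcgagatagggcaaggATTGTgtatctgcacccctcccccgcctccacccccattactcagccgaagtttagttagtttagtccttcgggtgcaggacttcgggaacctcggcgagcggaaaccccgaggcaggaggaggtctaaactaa
Sox2: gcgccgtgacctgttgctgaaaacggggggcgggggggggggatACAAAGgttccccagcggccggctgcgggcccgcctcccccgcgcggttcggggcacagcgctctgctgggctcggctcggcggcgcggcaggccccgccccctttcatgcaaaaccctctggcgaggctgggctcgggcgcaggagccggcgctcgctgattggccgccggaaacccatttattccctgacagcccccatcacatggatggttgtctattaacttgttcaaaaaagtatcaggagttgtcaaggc

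All 3 windows are rich in GC and CpG. The Prox1 promoter holds 25 CpG and 64.3% GC, that of Sall1 18 CpG and 57.3% GC, and that of Sox2 27 CpG and 66.3% GC, beside medians of 7 CpG and 52.7% GC over 32851 RefSeq promoters of this length. The SOX letters occur once in the Sall1 window (bases 167 to 171, minus strand of the window) and once in the Sox2 window (bases 45 to 50), and not in the Prox1 window. They occur in 42.9% of all promoters of this length. The letters AGATAA, bound by GATA proteins, occur in none of the 3 windows and in 11.2% of all promoters, on either strand. Neither set of letters overlaps the other. Of the 9 genes, 6 had a promoter in the RefSeq table. The RefSeq start of Prox1 lies 113 bases and that of Sox2 410 bases from the start in the gene annotation used for coordinates below. For Sall1, the study reported a higher level in null cochleae by RNA sequencing and by qPCR. Its qPCR primer pair is shown because it places a second assay on the same transcript.
Sall1 forward primer: ctcaacatttccaatccgaccc
Sall1 reverse primer: ggcatccttgctcttagtggg

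The forward primer lies at chr8:89042381-89042402 in exon 2 and the reverse primer at chr8:89033349-89033369 in exon 3 of mm10, both in coding sequence, and together they span 101 bases of the spliced transcript. The deposited counts cover all exons of the gene, and no qPCR value was used here.

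Total counts ranged from 24095322 to 30819118 per library. Values below are CPM, read counts scaled to library size after TMM normalization, given for embryos 1, 2 and 3 of each genotype in that order, and each gene was tested with edgeR's quasi-likelihood test on the 6 libraries of a genotype pair. A call needs an adjusted p-value under 0.05 over all genes tested and an absolute log2 fold change over 0.5. The p-values measure the spread between 3 embryos per genotype, for which the smallest two-sided p of an exact permutation test is 0.1, and in bulk RNA fewer cells of a type cannot be told apart from less RNA per cell. Prdm16 itself had 224, 198 and 185 CPM in WT, 151, 123 and 141 CPM in heterozygote and 23.7, 19.1 and 27.4 CPM in null embryos, in the order of the labelled genotypes. Epithelial markers were high in every library, with Epcam between 603 and 834 CPM. Null embryo 3 stood apart, with 1740 CPM of the cartilage genes Acan, Hapln1, Matn1, Matn3 and Matn4 together against at most 92.3 CPM elsewhere. Mesenchyme markers were uneven, at 563, 1040 and 115 summed CPM in WT, 59.4, 102 and 76.6 in heterozygote and 70.3, 41.8 and 1630 in null embryos. Neuron, blood endothelium, red blood cell and macrophage lists had 0 genes called between null and WT with edgeR, DESeq2 or limma-voom, and 1 gene with an unadjusted p under 0.05. Every tested gene of blood endothelium (6), red blood cells (4) and macrophages (3) had a negative fold change there, with medians of -1.42, -0.77 and -1.49 on the log2 scale. Blood endothelium genes summed to 78.6, 63.9 and 3.3 CPM in WT and 5.4, 2.55 and 45.5 CPM in null embryos, and neuron genes reached 40.1 CPM in null embryo 3 against at most 23.9 CPM elsewhere. Without null embryo 3, edgeR called 1 blood endothelium gene, Cldn5, lower in null than in WT embryos.

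Per kilobase of exon, the WT levels of the 9 genes spanned a wide range. Sox10 was highest at 259 ± 14.1 RPKM (SD, n = 3), above 99.7% of tested genes, followed by Gata3 at 182 ± 11.7 RPKM (SD, n = 3). Eya1 had 52.8 ± 1.77, Sox9 50.5 ± 11.7, Sox2 43.5 ± 2.78 and Sall1 43 ± 3.2 RPKM (SD, n = 3 each). Neighbours among these 4 genes overlapped between embryos, while every WT value of Eya1 lay above every WT value of Sox2 and Sall1. Pax2 lay below them at 32.2 ± 6.58 RPKM and Sox21 at 12.6 ± 1.91 RPKM (SD, n = 3 each). Prox1 was lowest at 3.4 ± 0.599 RPKM (SD, n = 3), in the 42.7th percentile, and its null level of 8.45 ± 1.05 RPKM (SD, n = 3) still lay below every WT value of Sox21. Sox10 against Gata3, Gata3 against Eya1, Sall1 against Pax2, Pax2 against Sox21 and Sox21 against Prox1 did not overlap in WT.

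**Figure D1:**
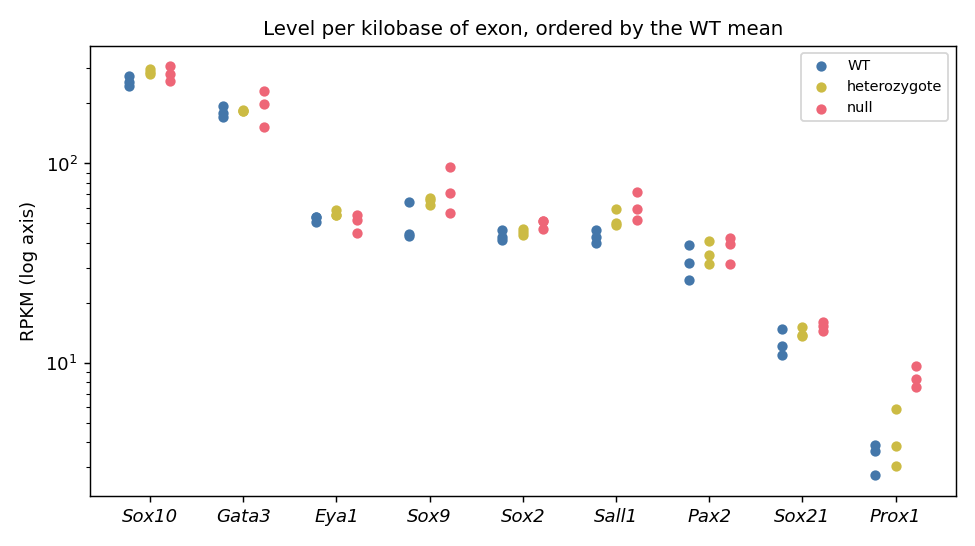
Level of the 9 genes per kilobase of exon (RPKM, log axis) with one point per embryo, coloured by genotype and ordered by the WT mean. Sox10 and Gata3 lie highest, Prox1 lies lowest, and for Prox1 the 3 null points stand above all WT and heterozygote points.

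Between null and WT embryos, 1 of the 9 genes was called higher and 0 lower, where 0.920% of the 17168 tested genes were called higher and 0.786% lower, 1.71% in all. All 9 genes passed the filter on low counts in every comparison. The null values lay above all WT values for 3 of 9 genes, against 9.85% of tested genes, and below for 0 of 9, against 9.15%. The fold change was positive for 8 of 9 genes, with a median log2 fold change of 0.22 beside 0.01 over all tested genes, and 5 had an unadjusted p under 0.05, against 12.2%. Without null embryo 3, Prox1 was still the gene called among the 9.

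**Figure D2:**
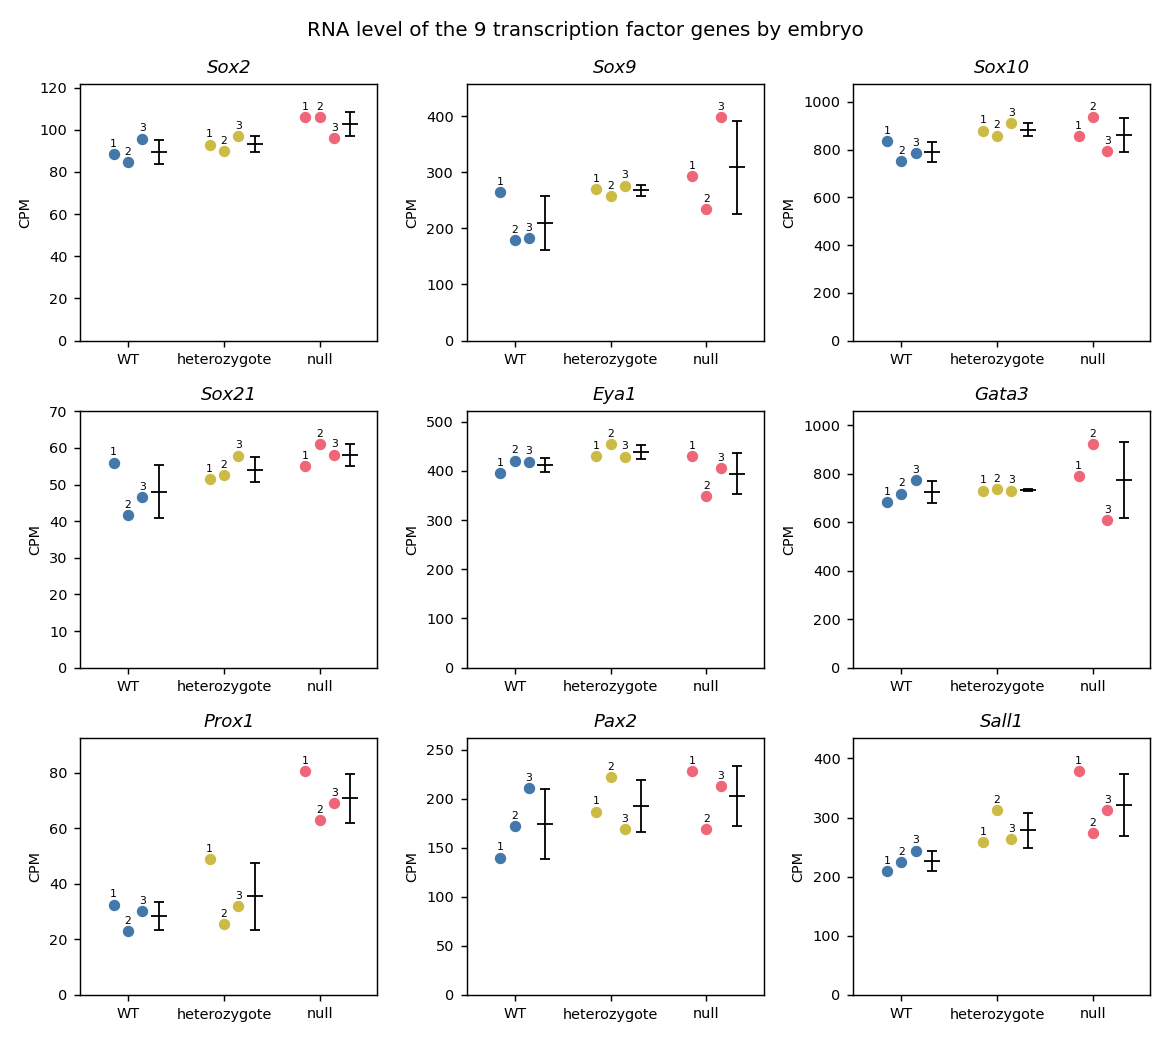
RNA level of each gene in CPM on an axis from 0, with one numbered point per embryo and, beside each genotype, the mean and SD of 3 embryos. Prox1 is separated between null and both other genotypes, Sall1 and Sox2 between null and WT, and the rest overlap between null and WT.

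Prox1 (ENSMUSG00000010175, chromosome 1, 190118035 to 190170714 of mm10, minus strand) encodes a homeodomain protein of prosensory and supporting cells that is also the main fate regulator of lymphatic endothelium. It had 32.5, 22.9 and 30.2 CPM in WT, 49, 25.4 and 32.1 CPM in heterozygote and 80.5, 63.1 and 69.2 CPM in null embryos. Every null embryo was above every other embryo, and heterozygote embryo 1 stood above the WT embryos while the other 2 heterozygotes lay within or near them. The WT mean was 28.5 ± 5.03 CPM and the null mean 70.9 ± 8.82 CPM (SD, n = 3 each), so the level rose to 249% of WT. This is a log2 fold change of 1.31 with an SE of 0.151 (95% interval 0.96 to 1.66, edgeR adjusted p = 0.00662), the 71st smallest p of the comparison. Against heterozygotes the null embryos were higher by 1.00 on the log2 scale (SE 0.221, edgeR adjusted p = 0.129), which did not pass although the groups did not overlap. With DESeq2 this difference passed (adjusted p = 5.1e-05), and with limma-voom it did not (adjusted p = 0.089). Between heterozygotes and WT the log2 fold change was 0.32 (95% interval -0.17 to 0.80, edgeR adjusted p = 0.591), and without heterozygote embryo 1 it was 0.01. The lymphatic markers Lyve1, Flt4 and Reln were at most 1.61, 3.78 and 2.3 CPM in any library, and of this list of 4 genes 1, Pdpn, which cochlear epithelium also expresses, was called higher (0.70, edgeR adjusted p = 0.0354). The Pdpn call was lost without any 1 of the WT embryos or null embryo 1, the other 2 genes tested were negative, and DESeq2 called Lyve1 lower. The summed list ran from 94.7 to 111 CPM in WT, 106 to 115 in heterozygote and 146 to 191 in null embryos, nearly all of it Pdpn. Prox1 shares 133 exon bases (1.6%) with the antisense gene Prox1os, whose highest level was 1.4 CPM.

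Sall1 (ENSMUSG00000031665, chromosome 8, 89027235 to 89044162 of mm10, minus strand) encodes a zinc finger repressor. It had 210, 225 and 244 CPM in WT, 259, 313 and 264 CPM in heterozygote and 378, 274 and 313 CPM in null embryos. All null and all heterozygote embryos lay above all WT embryos, and null and heterozygote embryos overlapped. The means were 226 ± 16.8, 279 ± 29.6 and 322 ± 52.8 CPM (SD, n = 3 each), so that null embryos were at 142% and heterozygotes at 123% of WT. Null embryos exceeded WT by 0.51 on the log2 scale (SE 0.125, 95% interval 0.22 to 0.80, edgeR adjusted p = 0.118), which did not pass over all genes. It passed with DESeq2 (adjusted p = 0.00378), with all 9 libraries in one edgeR fit (adjusted p = 0.0448) and without a filter on low counts (edgeR adjusted p = 0.0265), and over the alternatives with all embryos its adjusted p ran from 0.00378 to 0.254. Between heterozygotes and WT it was 0.31 (SE 0.0758, 95% interval 0.14 to 0.48, edgeR adjusted p = 0.111). There DESeq2 reached an adjusted p of 0.00344, with a fold below that of a call. Between null and heterozygote embryos the difference of 0.20 (95% interval -0.09 to 0.50, edgeR adjusted p = 0.57) did not pass.

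**Figure D3:**
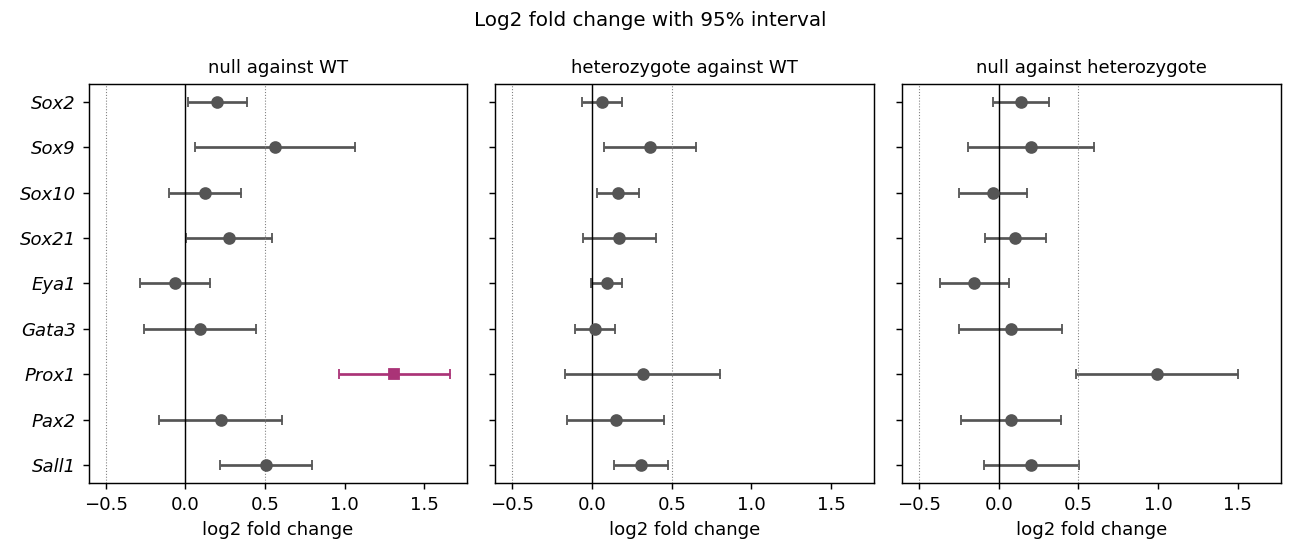
Log2 fold change with its 95% interval for each gene in the 3 genotype comparisons from edgeR, with dotted lines at 0.5 and -0.5 and a square for the gene called. Prox1 between null and WT, at 1.31, is the gene called, and the intervals of Sall1 and Sox9 lie above 0 against WT in both comparisons.

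Of the 4 Sox genes, none was called in any comparison, and their fold changes between null and WT were all positive. Sox2 (ENSMUSG00000074637, chromosome 3, 34650405 to 34652461, plus strand, a single exon), the marker of the prosensory domain, had 88.3, 84.5 and 95.8 CPM in WT, 93, 89.7 and 97 CPM in heterozygote and 106, 106 and 96.2 CPM in null embryos. Null embryos 1 and 2 lay above all others, while null embryo 3 exceeded the highest WT embryo by less than the spread within either group. Null embryos exceeded WT by 0.20 on the log2 scale (SE 0.0798, 95% interval 0.01 to 0.38, edgeR adjusted p = 0.367), and heterozygotes exceeded WT by 0.06 (95% interval -0.06 to 0.19, edgeR adjusted p = 0.689). Both intervals lie below the fold of a call. Sox21 (ENSMUSG00000061517, chromosome 14, 118233232 to 118237030, minus strand), a single-exon SOXB2 gene of sensory regions, had 56, 41.7 and 46.5 CPM in WT, 51.6, 52.5 and 57.9 CPM in heterozygote and 55, 61 and 58.2 CPM in null embryos. WT embryo 1 reached the null range. For null against WT the log2 ratio was 0.27 (SE 0.117, 95% interval 0.00 to 0.54, edgeR adjusted p = 0.403), and without WT embryo 1 it was 0.40 and did not pass either. Sox21 shares 713 exon bases (18.8%) with the antisense gene Gm4675, which had at most 4.09 CPM.

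Sox9 (ENSMUSG00000000567, chromosome 11, 112782224 to 112787760, plus strand), a regulator of the early otic epithelium and of cartilage, had the largest coefficient of variation of the 9 genes between null embryos, 26.9%. It had 265, 179 and 183 CPM in WT, 270, 257 and 276 CPM in heterozygote and 293, 234 and 398 CPM in null embryos. WT embryo 1 lay with the heterozygotes, and null embryo 3 stood above all others. Null against WT gave a log2 ratio of 0.56 (SE 0.217, 95% interval 0.06 to 1.06, edgeR adjusted p = 0.345), and without null embryo 3 it was 0.34. Between null and heterozygote embryos it was 0.20 (95% interval -0.19 to 0.60, edgeR adjusted p = 0.659) and -0.03 without null embryo 3. Between heterozygotes and WT it was 0.36 (SE 0.129, edgeR adjusted p = 0.256), and without WT embryo 1 it was 0.57 and passed (edgeR adjusted p = 0.00442). The 5 cartilage genes named above summed to 26.2, 38.5 and 18.9 CPM in WT, 29.6, 43.5 and 21.1 CPM in heterozygote and 86.1, 92.3 and 1740 CPM in null embryos. In null embryos 1 and 2 most of the sum was Matn4, at 70.6 and 78.1 CPM against 9.19 to 26.3 CPM in the WT and heterozygote embryos, while Acan, Hapln1, Matn1 and Matn3 there were each within the WT and heterozygote range. The library highest in these genes was also the library highest in Sox9, and Col2a1 was 10000 CPM there against 4490 to 5470 CPM in the others. Of 9 cartilage genes tested, 0 were called with edgeR or limma-voom, 1 with DESeq2 and 1 with edgeR without null embryo 3 (Matn4, higher, in both), 4 had an unadjusted p under 0.05 and 9 had a positive log2 fold change between null and WT, and their summed level ran from 10600 to 10700 CPM in WT and from 9720 to 19000 CPM in null embryos. The part of cartilage tissue in the Sox9 values was not tested.

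**Figure D4:**
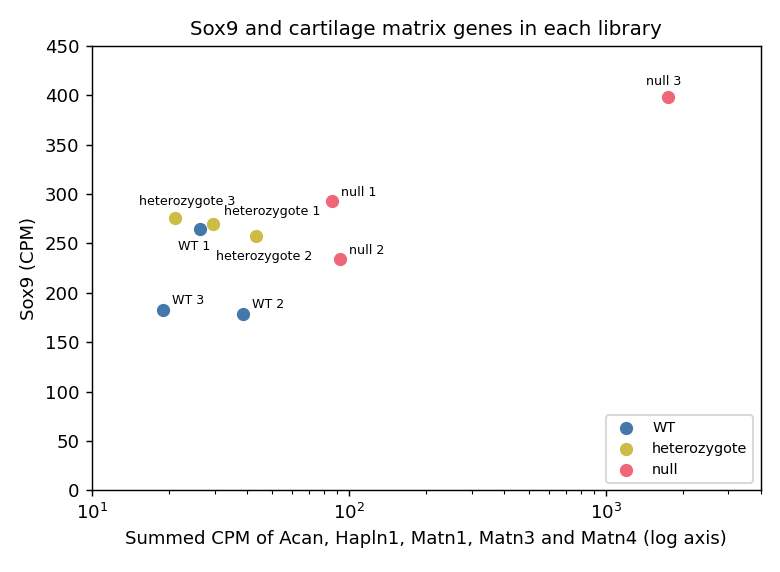
Sox9 level (CPM, axis from 0) against the summed level of 5 cartilage matrix genes (CPM, log axis), with one labelled point per embryo coloured by genotype. Null embryo 3 is far to the right at 1740 CPM and is highest in Sox9 at 398 CPM, and the other 8 embryos lie between 179 and 293 CPM.

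Sox10 (ENSMUSG00000033006, chromosome 15, 79154908 to 79165240, minus strand), expressed in otic epithelium, glia and melanocytes, had 836, 751 and 785 CPM in WT, 880, 859 and 912 CPM in heterozygote and 858, 936 and 794 CPM in null embryos. The heterozygotes lay above all WT embryos, and the null embryos spanned both. Null embryos differed from WT by 0.12 on the log2 scale (95% interval -0.10 to 0.35, edgeR adjusted p = 0.68) and heterozygotes by 0.16 (95% interval 0.03 to 0.30, edgeR adjusted p = 0.26), both within the fold of a call. Glial markers were at 780 to 857 summed CPM in WT, 822 to 862 in heterozygote and 677 to 812 in null embryos, of which Erbb3 made up 565 to 758 CPM. Of 7 glial genes tested between null and WT, 0 were called with edgeR, DESeq2 or limma-voom and 0 had an unadjusted p under 0.05. The melanocyte list summed to 119, 168 and 78.8 CPM in WT, 45.4, 62.5 and 44.4 CPM in heterozygote and 28.5, 24.4 and 66.8 CPM in null embryos. All 7 melanocyte genes had a negative fold change between null and WT, with a median of -2.14 on the log2 scale. With edgeR 0 were called, 6 had an unadjusted p under 0.05, and DESeq2 called 2 lower (Pmel and Tyrp1). Without null embryo 3 edgeR called 4 lower (Dct, Pmel, Tyr and Kit), and without WT embryo 3 it called 1 (Tyrp1). Their defining genes Dct and Pmel were at most 65.7 and 52.2 CPM, and their part in the Sox10 values was not tested.

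Gata3, Eya1 and Pax2, the regulators of early otic development, did not pass in any comparison. Gata3 (ENSMUSG00000015619, chromosome 2, 9857078 to 9890034, minus strand), a zinc finger factor, had 682, 718 and 774 CPM in WT, 730, 737 and 730 CPM in heterozygote and 790, 921 and 609 CPM in null embryos. The null embryos held both the highest and the lowest of the 9 values, and the heterozygotes differed least, with a coefficient of variation of 0.558% against 20.2% in null embryos. Null against WT gave 0.09 on the log2 scale (95% interval -0.26 to 0.44, edgeR adjusted p = 0.848), and it was -0.05 without null embryo 2. Gata3 shares 77 exon bases with 9230102O04Rik on its own strand and 155 with Gm13256 on the other, which had at most 7.68 and 8.42 CPM.

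Eya1 (ENSMUSG00000025932, chromosome 1, 14168954 to 14310235, minus strand) had 396, 421 and 419 CPM in WT, 430, 454 and 429 CPM in heterozygote and 430, 348 and 405 CPM in null embryos. It was the only gene of the 9 with a negative fold change between null and WT, of -0.07 on the log2 scale (95% interval -0.29 to 0.15, edgeR adjusted p = 0.828), which was 0.02 without null embryo 2. The heterozygotes lay above all WT embryos, by 0.09 on the log2 scale (95% interval -0.01 to 0.19, edgeR adjusted p = 0.428). Pax2 (ENSMUSG00000004231, chromosome 19, 44756045 to 44837871, plus strand), a paired box factor needed for outgrowth of the duct, had 140, 172 and 211 CPM in WT, 187, 222 and 169 CPM in heterozygote and 228, 169 and 213 CPM in null embryos. The 3 genotypes overlapped throughout. Null embryos differed from WT by 0.22 on the log2 scale (95% interval -0.16 to 0.60, edgeR adjusted p = 0.658), so a change past the fold of a call is inside the interval. It was 0.09 without WT embryo 1 and 0.39 without WT embryo 3.

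In heterozygotes, 0 of the 9 genes were called against WT, where 0.0521% of 17269 tested genes were called higher and 0.0984% lower, and DESeq2 also called 0 of the 9, as did limma-voom. All 9 fold changes were positive, with a median log2 fold change of 0.16 beside 0.00 over all tested genes, and 3 had an unadjusted p under 0.05 (Sox9, Sox10 and Sall1), against 13.1%. Cochlear epithelium genes were also positive in 8 of 8 there (median 0.12), and prosensory domain genes in 13 of 15 (median 0.23). Sox10, Eya1 and Sall1 were higher in all 3 heterozygotes than in any WT embryo, 3 of 9 against 8.46% of tested genes, and 0 were lower, against 9.50%. With the mesenchyme level as a covariate, 4 of the 9 fold changes turned negative, for Sox2, Gata3, Prox1 and Pax2. Summed mesenchyme genes were at 115 to 1040 CPM in WT and at 59.4 to 102 CPM in heterozygote embryos, without overlap. That fit therefore cannot fully separate mesenchyme level from genotype. Mesenchyme genes themselves were negative in 10 of 10 between heterozygotes and WT, with a median log2 fold change of -2.89. With edgeR 0 of them were called, 9 had an unadjusted p under 0.05, and DESeq2 called 5 lower. Blood endothelium (5 of 5 tested, median -2.94), red blood cell (4 of 4, -1.80), macrophage (4 of 4, -2.56) and melanocyte genes (7 of 7, -1.58) were also all negative there, with 0 called by edgeR and 2, 4, 3 and 4 called lower by DESeq2. Without WT embryo 3 edgeR called 9 mesenchyme, 6 blood endothelium, 4 red blood cell, 3 macrophage and 6 melanocyte genes lower, with the filter on low counts applied anew and all 6 endothelium genes of the list tested. Their part in the heterozygote values of the 9 genes was not tested. Between null and heterozygote embryos, 0 of the 9 genes were called, where 0.293% of 17067 tested genes were called higher and 0.322% lower, DESeq2 called 1, Prox1, and limma-voom 0. In that comparison 7 fold changes were positive and 2 negative (Sox10 and Eya1), the median was 0.10 beside 0.01 over all tested genes, 1 gene had an unadjusted p under 0.05, against 11.4%, 1 lay above all heterozygotes, against 9.24%, and 0 below, against 8.84%. Mesenchyme genes were positive in 10 of 10 (median 2.69) and cartilage genes in 9 of 9 (median 0.64) between null and heterozygote embryos, where edgeR and DESeq2 called Matn4 higher. Blood endothelium (4 of 4, median 1.68), red blood cell (4 of 4, 0.89) and hair cell genes (6 of 7, 0.89) were also mostly positive there, with 0 called by edgeR and Hba-a1 and Myo7a called higher by DESeq2. Without null embryo 2 edgeR called both higher, and without null embryo 3 it called Myo7a. The part of these lists was not tested. The 3 comparisons share embryos and are not independent of each other.

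Of 35 paralogs among the SOX, EYA, GATA, PROX, PAX and SALL genes, 22 were tested between null and WT, and 0 were called with edgeR or limma-voom, with 12 positive and 10 negative fold changes, 3 with an unadjusted p under 0.05 and a median log2 fold change of 0.05. DESeq2 called 4 higher, which were Gata2 and the scarce Sox1, Pax1 and Pax9. Null embryo 3 was highest in each of these, with 3.01, 1.8 and 1.59 CPM, against at most 0.495, 0.226 and 0.619 CPM in the other 2 null embryos. The 4 with the highest CPM were Sall2, Sox11, Gata2 and Eya4. Gata2, a paralog of Gata3, had 528, 541 and 596 CPM in WT and 811, 939 and 669 CPM in null embryos without overlap, and differed by 0.54 on the log2 scale (SE 0.133, edgeR adjusted p = 0.121). Without null embryo 3 edgeR called it higher. Sall2 (0.13), Sox11 (0.12) and Eya4 (-0.15) had edgeR adjusted p-values of 0.641, 0.693 and 0.651.

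Of 35 other otic regulators, 33 were tested between null and WT, and 1 was called higher and 0 lower with edgeR, against 0.920% and 0.786% of all tested genes. Fold changes were positive for 19 and negative for 14, with a median of 0.08 on the log2 scale. Of these genes 16 had an unadjusted p under 0.05, against 12.2% of all tested genes, and 11 lay above and 3 below all WT embryos, against 9.85% and 9.15%. DESeq2 called 4 higher (Dlx5, Hes1, Gata2 and Meis2) and 1 lower (Hes5), and limma-voom called Dlx5 higher and Hes5 lower. The gene called with edgeR was Dlx5, a homeobox gene of the dorsal otic vesicle, which had 1.62, 1.61 and 2.08 CPM in WT, 2, 3.6 and 3.39 CPM in heterozygote and 5.61, 6.29 and 5.36 CPM in null embryos. All 3 null embryos lay above the rest, by 1.69 against WT on the log2 scale (SE 0.207, edgeR adjusted p = 0.00768). The call was lost without WT embryo 1 or WT embryo 2. Meis2 was called between null and heterozygote embryos (0.64, edgeR adjusted p = 0.0323), but not without any 1 of the heterozygotes or null embryo 1, and reached an edgeR adjusted p of 0.0547 between null and WT.

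Of 15 genes of the prosensory domain, all were tested between null and WT, and 13 fold changes were positive, with a median log2 fold change of 0.36 beside 0.01 over all tested genes. Of the 15, 5 were called higher and 0 lower, against 0.920% and 0.786% of all tested genes. These were the Notch modifier Lfng, the growth factor Fgf20, the cell cycle inhibitor Cdkn1b, the calcium binding protein gene S100a1 and Tectb, a tectorial membrane component. Their log2 fold changes ran from 0.52 for Cdkn1b to 1.44 for Lfng, beside 0.20 for Sox2 and 1.31 for Prox1 in the same libraries. The list was drawn up with these results known and several of its genes had been named by the study, so it is not independent evidence of its direction. Its summed level was 2200 to 2270 CPM in WT, 2830 to 2860 CPM in heterozygote and 2750 to 3630 CPM in null embryos, with Tectb the largest part. With one embryo left out, the number of these genes called between null and WT was 0 without WT embryo 2, 1 (Lfng) without WT embryo 1, 2 (Lfng and S100a1) without WT embryo 3, null embryo 1 or null embryo 2, and 6 without null embryo 3. In heterozygotes Tectb was called (0.62 against WT, edgeR adjusted p = 0.0107), and not without heterozygote embryo 2 or 3. DESeq2, and edgeR without WT embryo 1, called 3 of the list higher there (Lfng, Fgf20 and Tectb), and edgeR without WT embryo 3 called 2 (Fgf20 and Tectb). Between null and heterozygote embryos 12 of the 15 were positive (median 0.29). There edgeR and limma-voom called 1 higher, S100a1, against 0.293% of tested genes with edgeR, and DESeq2 called 2, Lfng and S100a1. The edgeR call was lost without any 1 of the heterozygotes.

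**Figure D5:**
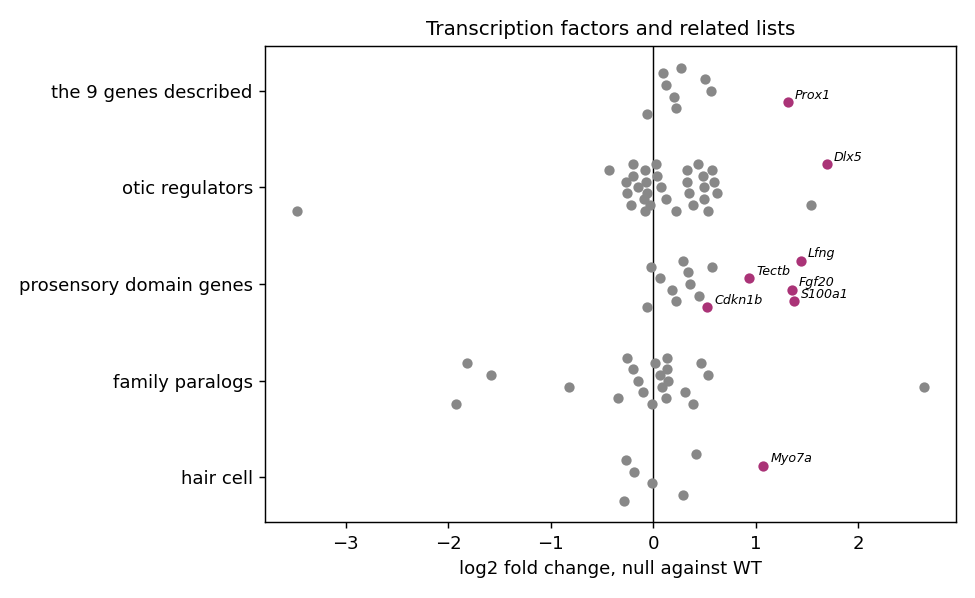
Log2 fold change between null and WT for the 9 genes described and for the tested genes of 4 lists, with one point per gene, spread vertically only for legibility, and called genes coloured and named. Called genes number 1 of the 9, 1 of 33 otic regulators, 5 of 15 prosensory genes, 0 of 22 paralogs and 1 of 7 hair cell genes, all of them higher in null embryos.

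Hair cell genes are switched on after SOX2 in the prosensory domain, beginning with the regulator Atoh1. At this stage Atoh1 was at most 7.15 CPM and Pou4f3 at most 14 CPM, while Myo6, a myosin gene, had 84.6 to 138 CPM in the 9 libraries. The hair cell list summed to 206 CPM in WT embryo 3 and 255 CPM in null embryo 3, against 116 to 156 CPM elsewhere. Its gene Myo15 had 17.3 and 25.4 CPM in these embryos, against 1.69 to 2.76 CPM elsewhere. Atoh1 did not set them apart, at 4.46 to 7.15 CPM over the 9 libraries. Of 7 hair cell genes tested between null and WT, 1 was called higher, against 0.920% of all tested genes. This was Myo7a, an unconventional myosin of hair cells, which had 14.4, 17.8 and 18.8 CPM in WT and 34.5, 29.2 and 43.9 CPM in null embryos (log2 fold change 1.08, edgeR adjusted p = 0.0257). The call was lost in the fits without WT embryo 1, WT embryo 2, WT embryo 3 or null embryo 1. Atoh1 (-0.29) and Pou4f3 (-0.27) had edgeR adjusted p-values of 0.688 and 0.875. Markers of the cochlear epithelium as a whole, 8 genes of which 0 were called with edgeR, 2 had an unadjusted p under 0.05 and 1, Oc90, was called higher by DESeq2, summed to 10100 to 11800 CPM in WT, 12100 to 12800 CPM in heterozygote and 13400 to 17000 CPM in null embryos. Most of this sum was Oc90, an otoconial protein gene of the roof. Between null and WT 7 of the 8 fold changes were positive, with a median of 0.28 on the log2 scale beside 0.01 over all tested genes. Those of Epcam and Cdh1 were 0.07 and 0.01. The part of the makeup of the duct in the levels of the 9 genes was not tested.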

How the data were processed

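Reads of 50 bases from TruSeq mRNA libraries were, per the labels and the study's methods, aligned to mm10 with STAR, and the submitters' processing notes also name cutadapt 1.13, HTSeq 0.6.1p1 and DESeq2. For each of 9 libraries the authors deposited the unnormalized read count of every Ensembl gene. The strand setting and annotation release are not given in the sources used here, so reads of overlapping antisense genes may not be told apart. GENCODE M21 (mm10) named 54165 of 54232 genes.

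Each genotype pair was tested on its 6 libraries with edgeR 4.0.16 in R 4.3.3 (TMM, filterByExpr with a minimum count of 10, quasi-likelihood test, Benjamini-Hochberg adjustment over all tested genes, as 17168 genes between null and WT). The study used DESeq2, which is an alternative here. The depth was 24095322 to 30819118 counts per library, and errors are the spread between 3 embryos per genotype. The floor of a library was 3 counts. RPKM is CPM per kilobase of merged exons, and log2 CPM used a prior count of 2. Intervals are standard errors times a t quantile.

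The 9 genes and all lists were chosen with earlier results of these data known. Named besides the 9 genes are Prdm16, genes with overlapping exons, genes of each list called between null and WT (or the 4 most abundant, where the text describes such a list), and the 2 genes most like each of the 9. Genes outside this rule were named after their values were seen. These are Meis2, Hes1, Hes5, Sox1, Pax1, Pax9, Atoh1, Pou4f3, Myo6, Myo15, Hba-a1, Cldn5 and the cell type markers given beside Prox1, Sox9 and Sox10.

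Alternatives were DESeq2 1.42.0, limma-voom (limma 3.58.1), RLE or library totals, other filters, all 9 libraries in one fit, the replicate block, covariates for sex and mesenchyme, no fold threshold, and leaving out each embryo. The procedure was tested on simulated data for null against WT. It called 55 of 98 genes given a log2 fold change of 1.3 in size. With 0.5 in size it called 6 of 100 genes, and with 0 it called 7 of 16805. Promoters are from RefSeq (GRCm38.p6).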

Additional observations from a re-analysis of the deposited data

How the results depend on the processing

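Prox1 was called between null and WT in all 10 alternatives with all embryos (log2 fold change 1.26 to 1.32, adjusted p 5.48e-15 to 0.0146) and in all 6 fits that left out one embryo (1.18 to 1.42, edgeR adjusted p 0.00799 to 0.0339). Among the 9 genes, 2 (Prox1 and Sall1) were called between null and WT with DESeq2, with no filter on low counts and with all 9 libraries in one fit. Between null and heterozygote embryos 1 (Prox1) was called with DESeq2 (adjusted p = 5.1e-05), with no filter (edgeR adjusted p = 0.000984) and with the replicate block. Leaving out one embryo gave 0 to 1 of the 9 between heterozygotes and WT, the 1 being Sox9 without WT embryo 1.

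Of all tested genes, 293 were called between null and WT, against 618 with DESeq2, 476 with no filter, 468 with all 9 libraries in one fit and 68 (without WT embryo 2) to 446 (without null embryo 3) with one embryo left out. Between heterozygotes and WT 26 were called, against 319 with DESeq2, 11 with limma-voom, 684 with no filter, 0 with all 9 libraries in one fit, 53 with the sex covariate, 10 with the mesenchyme covariate, 45 with no threshold on the fold change and 0 to 505 with one embryo left out. Between null and heterozygote embryos 105 were called, against 354 with DESeq2, 366 with no filter, 164 with all 9 libraries in one fit, 253 with the mesenchyme covariate and 12 to 182 with one embryo left out. The cause of these differences was not tested.

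Fold changes of the 9 genes turned sign in the fits below, and none of those had been called. With the mesenchyme covariate these were Gata3 between null and WT (-0.0529), and Sox2 (-0.0652), Gata3 (-0.0723), Prox1 (-0.097) and Pax2 (-0.0717) between heterozygotes and WT. Between heterozygotes and WT, mesenchyme level and genotype cannot be fully separated. With the sex covariate Gata3 was -0.0205 between null and heterozygote embryos. With one embryo left out, Gata3 (-0.0457 to 0.2412) and Eya1 (-0.1318 to 0.0237) turned between null and WT, and Gata3 (-0.0188 to 0.0687) between heterozygotes and WT. Between null and heterozygote embryos Gata3 (-0.0657 to 0.222), Pax2 (-0.0105 to 0.1983), Sox9 (-0.025 to 0.3692) and Sox10 (-0.0976 to 0.0184) did.

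Embryos of different genotypes share only a replicate number. Correlations of same-numbered embryos' deviations ran from -0.33 to 0.00 between null and WT, from -0.06 to 0.23 between heterozygotes and WT and from -0.13 to 0.16 between null and heterozygote embryos. Of 6 embryos in each comparison, 0, 3 and 3 correlated best with their own number. As a block, this number gave 133, 197 and 52 called genes between null and WT, heterozygotes and WT, and null and heterozygote embryos, Prox1 among the last (1.04, edgeR adjusted p = 0.0472).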

Other observations

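Over the 9 libraries, Prox1 varied most like Enpp1, an ectonucleotide pyrophosphatase gene, and Zfp651 (Pearson r of log2 CPM 0.98 and 0.97). The nearest genes were Arhgap26 and Kcnq3 for Sall1 (0.97 and 0.96), Spdya and Grtp1 for Sox2 (0.95 each), Tnfaip3 and Fam43a for Sox9 (0.97 each) and 2810454H06Rik and Lipt1 for Sox10 (0.97 and 0.96). They were 6530437J22Rik and Msantd4 for Sox21 (0.95 each), Acvr2b and Smc5 for Eya1 (0.98 each), Nt5c2 and Cdh1 for Gata3 (0.96 and 0.95) and Cpne4 and Slc2a12 for Pax2 (0.96 and 0.95). Among the 9 genes themselves, the pairs with the highest r were Sox2 with Prox1 (0.80), Pax2 with Sall1 (0.79) and Sox10 with Sox21 (0.75), and Sox9 with Gata3 had the lowest (-0.48). These values describe 9 libraries that share genotype, and the most similar genes were picked from all tested genes.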
